A study of Mus musculus with 6 samples.

Results

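Tripartite motif (TRIM) genes encode a large family of proteins that share a RING finger, 1 or more B-box zinc fingers and a coiled coil, followed by a C-terminal part that differs between subfamilies and mostly sets what the protein binds. Many are ubiquitin ligases. Some act in antiviral defence and are induced by interferon, while others work in transcription, on microtubules, in membrane traffic, or on mRNA in stem cells and early embryos. The genes described here are those whose symbol is Trim followed by a number and at most 1 letter. Of 58 genes with such a symbol on the arrays, 1 was left out by the rule, which gave 57 members among 19938 genes measured. Each member had 1 probe set of its own, so that no choice between probe sets was made for them. Trim5, Trim17, Trim30b, Trim43a, Trim43b, Trim43c, Trim60 and Trim61 were on probe sets shared with other genes and are not members, and Trim30c and Trim34b were not analysed here.

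Total RNA of mouse induced pluripotent stem cells (iPSCs) was hybridised to 6 Affymetrix arrays, 3 of the naive and 3 of the primed cell type by the labels. The naive cells were grown in medium with 15% serum and LIF at 1000 U/ml. The primed cells were grown in medium conditioned by embryonic fibroblasts with bFGF at 8 ng/ml, on feeders or matrigel. By the titles the naive lines came from embryonic fibroblasts and the primed lines from adult dermal fibroblasts, whereas the source field names embryonic fibroblasts for both. Culture and origin therefore cannot be told apart if the titles hold. No strain, sex, age or clone is given. The titles number the arrays of a group as biological replicates, without saying whether lines, clones, passages or cultures were repeated. P-values therefore measure the spread between these arrays and may not cover that between lines. In RNA of whole cultures, fewer cells of a type and less RNA per cell cannot be told apart.

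Values are log2 expression from robust multi-array averaging (RMA). Differences are primed minus naive on that scale, with SD and SE over n = 3 arrays a group, and p-values are those of limma after Benjamini-Hochberg adjustment over all 19938 genes. "Past the threshold" means an adjusted p under 0.05. Background was read from 1194 olfactory and vomeronasal receptor genes, whose 95th percentile lay between 6.96 and 7.02 on the 6 arrays. A group is called in background where all 3 of its arrays lay under their own cutoff. A level of 1 gene is not set against that of another, since probe sets differ in brightness. Of the pluripotency markers Pou5f1, Sox2, Nanog, Sall4, Utf1, Tdgf1 and Zfp42, 6 of 7 were above background in both groups, and Zfp42 was in background in both. Of the 7, 5 were higher in naive cells. Of 8 myeloid and leukocyte markers, 6 were in background in both groups. Their mean level lay between 6.87 and 6.97 in the naive group and between 6.90 and 6.92 in the primed group. The mean of 12 fibroblast and feeder markers lay between 8.12 and 8.15 in the naive group and between 8.15 and 8.18 in the primed group. Of these 12 genes, 2 were higher in primed cells, Dcn (2.89) and Pdgfrb (0.37). Another 4 were higher in naive cells, Acta2 (-1.23), Col1a1 (-0.76), Postn (-0.34) and Col1a2 (-0.32). In 3 of the 12, Postn among them, both groups were in background. The part of other cells in the TRIM values was not tested.

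Of the 57 TRIM genes, 21 had higher values in naive cells, 9 had higher values in primed cells, and the other 27 failed the test. In the comparison of all genes, 22.7% were higher in naive and 21.8% higher in primed cells, against 36.8% and 15.8% of the TRIM genes. The median difference was -0.06 over the family and -0.0015 over all genes. Most differences were small: 21 of the 30 genes past the threshold differed by less than 0.5, with a median size of 0.29, against 0.36 over all genes that passed. Only Trim25 and Trim67 passed and differed at least 2-fold, which is 3.51% of the family, and 3.55% of all genes did so. In 33 of 57 members (57.9%) the groups did not overlap, against 52.9% of all genes. Replicates were tight, with a median within-group SD of 0.065 and a highest SD of 0.24, that of Trim25 in primed cells. With arrays centred on their medians, naive cells had the higher value for 24 members and primed cells for 8, beside 6325 and 3439 of all genes, where the fit without centring gave 4529 and 4347.

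Part of the family was too dim to read. In 12 of the 57 members both groups lay in background, and of these only Trim38 passed. The other 11 were Trim10, Trim12a, Trim15, Trim30d, Trim36, Trim40, Trim52, Trim55, Trim69, Trim75 and Trim80. Among all 19938 genes, 5354 lay in background in both groups, and 616 of these passed. Of the remaining 45 members, 29 passed (64.4%), against 56.6% of all 14584 genes above background in a group. A gene enters this set through either group, so both shares are a description. Of the 45, 2 (Trim25 and Trim30a) were in background in primed cells only and 1 (Trim31) in naive cells only. Among the 14584 genes these were 270 and 320. Among genes with a mean over all arrays above the 40th percentile there were 32 members, of which naive cells had the higher value for 17 (53.1%) and primed cells for 6 (18.8%). Of all 11963 genes above that percentile, 34% and 31.7% were so. The median difference of these 32 members was -0.17, and that of the 11963 genes was -0.01. The 32 include Trim25, whose primed arrays were in background.

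**Figure D1:**
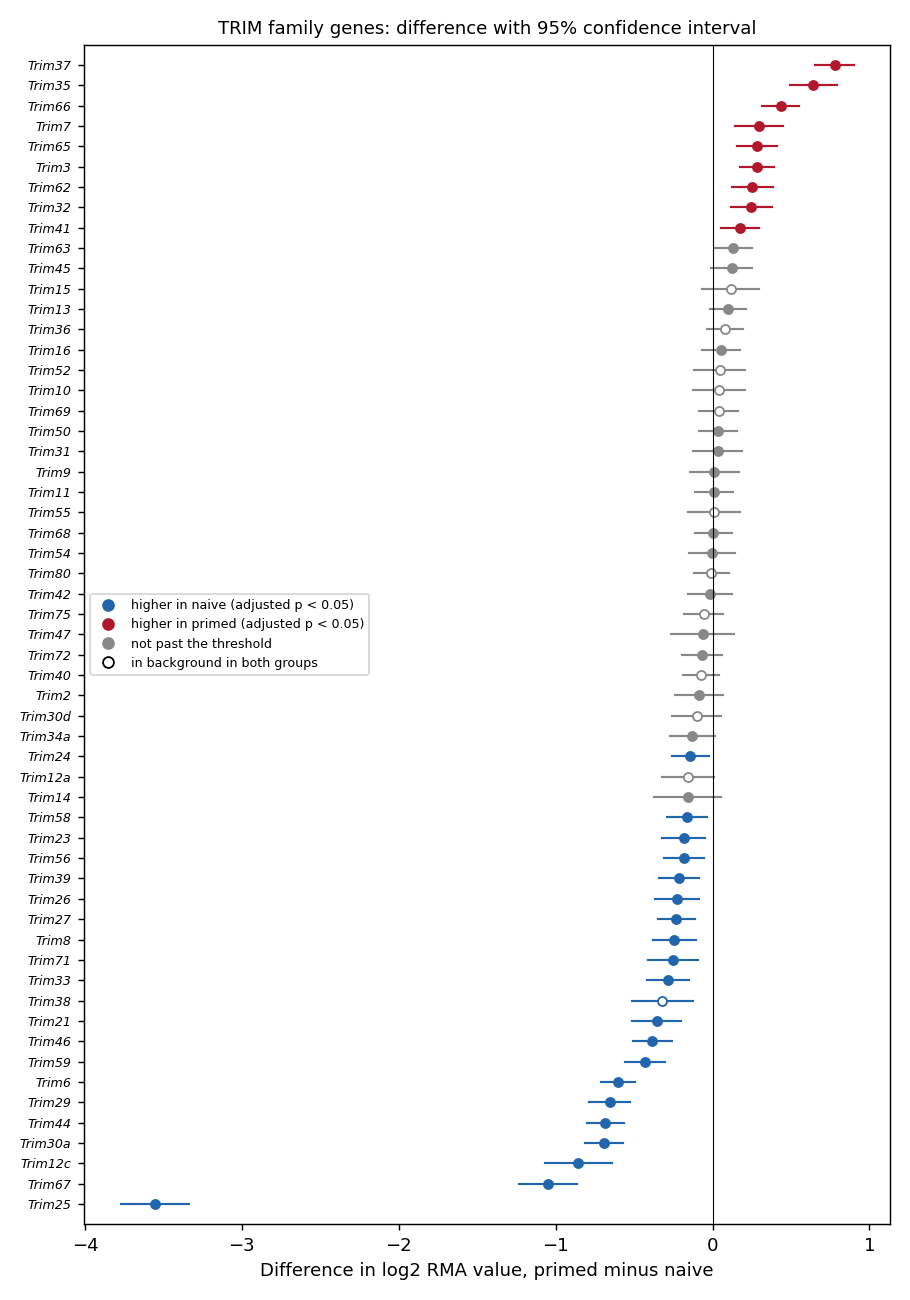
Difference in log2 RMA value (primed minus naive, horizontal axis) of each of the 57 TRIM genes, ordered by difference, with bars for the 95% confidence interval of the limma fit (n = 3 arrays a group). Blue points were higher in naive cells, red points higher in primed cells and grey points did not pass, and open points lay in background in both groups. Trim25 stands at -3.56, while the other 56 genes lie between -1.05 and 0.78.

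Before the values, the sequences at the starts of some interferon-related members are given, because 4 of the TRIM genes higher in naive cells carry there the letters of the interferon-stimulated response element, the site read by interferon regulatory factors and the STAT complex they join. RefSeq windows of 300 bases (250 before to 50 after a start, assembly GRCm38.p6) were found for 45 of the 57 members. The core of the element, a pair of GAAA blocks with any 2 bases between them, searched on both strands (TTTC blocks on the other strand), was in a window of 8 of these 45 (17.8%) and of 3.99% of all 27025 genes with a window. Of these 8 members, 6 lie on chromosome 7, and several are close copies of each other, so they are not independent. The match was in 4 of the 18 members higher in naive cells (Trim12c, Trim21, Trim26 and Trim30a), in 0 of the 6 higher in primed cells and in 4 of the 21 that did not pass (Trim2, Trim12a, Trim30d and Trim34a). Each stretch below is 30 bases on the strand of the gene, 5′ to 3′, with the matching letters in capitals:
Trim12c, chr7:104353359-104353388, minus strand: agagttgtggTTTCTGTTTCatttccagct
Trim12a, chr7:104315466-104315495, minus strand: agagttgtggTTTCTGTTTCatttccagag
Trim30a, chr7:104465210-104465239, minus strand: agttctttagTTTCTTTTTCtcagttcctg
Trim30d, chr7:104507871-104507900, minus strand: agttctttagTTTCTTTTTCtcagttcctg
Trim34a, chr7:104244457-104244486, plus strand: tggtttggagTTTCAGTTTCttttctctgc
Trim21, chr7:102565447-102565476, minus strand: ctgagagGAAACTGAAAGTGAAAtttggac
Trim26, chr17:36836979-36837008, plus strand: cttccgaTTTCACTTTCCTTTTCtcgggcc
In Trim21 and Trim26, 2 overlapping matches run into each other. The printed stretches of Trim30a and Trim30d were the same at 30 of 30 positions, and those of Trim12a and Trim12c at 28 of 30. A match in a second window of Trim30a, not printed, shared 26 of 30 positions with the stretch of Trim30d. The STAT palindrome TTCNNNGAA was in windows of 5 of the 45 members (11.1%; Trim15, Trim31, Trim38, Trim45 and Trim46) and of 9.55% of all genes. A match is a description of letters, not of a site in use.

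The 250 bases before the start of Trim25 are printed because this gene showed the largest difference of the family. They lie on the plus strand at chr11:88999153-88999402 of GRCm38.p6, and neither motif was found in the window. The stretch had a GC content of 63.2% and 12 CpG pairs, where the medians over all genes were 52% and 6.
Trim25: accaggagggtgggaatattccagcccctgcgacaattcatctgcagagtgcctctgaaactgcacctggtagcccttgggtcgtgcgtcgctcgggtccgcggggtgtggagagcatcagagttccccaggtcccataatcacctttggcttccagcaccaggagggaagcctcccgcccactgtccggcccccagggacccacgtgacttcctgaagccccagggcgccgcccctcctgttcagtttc

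Trim25 encodes a ubiquitin ligase that modifies the cytoplasmic RNA sensor RIG-I, adds the ubiquitin-like protein ISG15 to targets, and works with the zinc finger antiviral protein. It stood far outside the range of the other TRIM genes. Its naive arrays read 10.06, 10.02 and 10.13 and its primed arrays 6.76, 6.50 and 6.28. Every primed array was in background, and the lowest naive array lay 3.25 above the highest primed array. The difference was -3.56 (SE 0.10, 95% interval -3.77 to -3.34), rank 7 among all genes toward naive cells. Its difference minus that of Trim67, the next TRIM gene, was -2.51. Since the primed level was in background, the deposited values give a ratio of at least 8.46-fold, counted from the cutoff of the primed arrays, where the means as measured differ 11.8-fold. Trim25 was picked out for this difference, so these values are a description and no test is given.

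Genes beside Trim25 differed far less. Among the 5 genes above background on each side in RefSeq gene order on chromosome 11, the differences ran from -0.35 to 0.98 with a median of 0.06. The nearest ones were Coil (0.04) and Dgke (0.09), and neither passed the threshold. Of the 10 neighbours, 1 was higher in naive cells and 2 in primed cells.

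The interferon and antiviral group held 12 measured TRIM genes of the 16 listed. Naive cells had the higher value for 7 of them (58.3%) and primed cells for 1 (8.33%), while 4 failed the test. The 12 had a median difference of -0.20. Over all genes these shares were 22.7% and 21.8%, with a median of -0.0015. The 7 include Trim25, which was picked out for its difference. Trim12c, a mouse counterpart of the retroviral capsid sensor TRIM5, read 8.53, 8.81 and 8.70 on naive and 7.60, 7.88 and 7.99 on primed arrays. These groups did not overlap, and the difference was -0.85 (SE 0.10, adjusted p = 2.4e-05). Trim30a, an interferon-induced gene that restrains NF-kB signalling, read 6.87, 6.99 and 6.94 against 6.29, 6.20 and 6.24. Its groups did not overlap either (difference -0.69, SE 0.05, adjusted p = 1.2e-06), but only 1 of its naive arrays was above background, so no ratio is given. Trim21, a cytosolic antibody receptor, read 9.89, 10.17 and 9.94 on naive arrays and between 9.63 and 9.67 on primed arrays. Its difference was -0.36 (SE 0.07, adjusted p = 0.0016). Smaller drops were found for Trim26 (-0.23, adjusted p = 0.013) and Trim56 (-0.18, adjusted p = 0.024). Trim38, which dampens innate signalling, passed at -0.32 (adjusted p = 0.011) with both groups in background. The calls of Trim26 and Trim56 ended without primed replicate 2 and without primed replicate 3, and that of Trim56 also without either naive replicate 2 or 3.

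Trim65, a ligase for the RNA sensor MDA5, was the member of this group that went the other way. It read 7.54, 7.43 and 7.45 in naive and 7.71, 7.72 and 7.84 in primed cells, a difference of 0.29 (SE 0.06, adjusted p = 0.0017). Trim14, an adaptor of the mitochondrial antiviral complex, did not pass at -0.16, with a 95% interval from -0.37 to 0.06. Its primed arrays spread from 8.17 to 8.59 and overlapped the naive ones. Trim12a, Trim30d and Trim34a, the other members that did not pass, had differences of -0.15, -0.10 and -0.13.

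**Figure D2:**
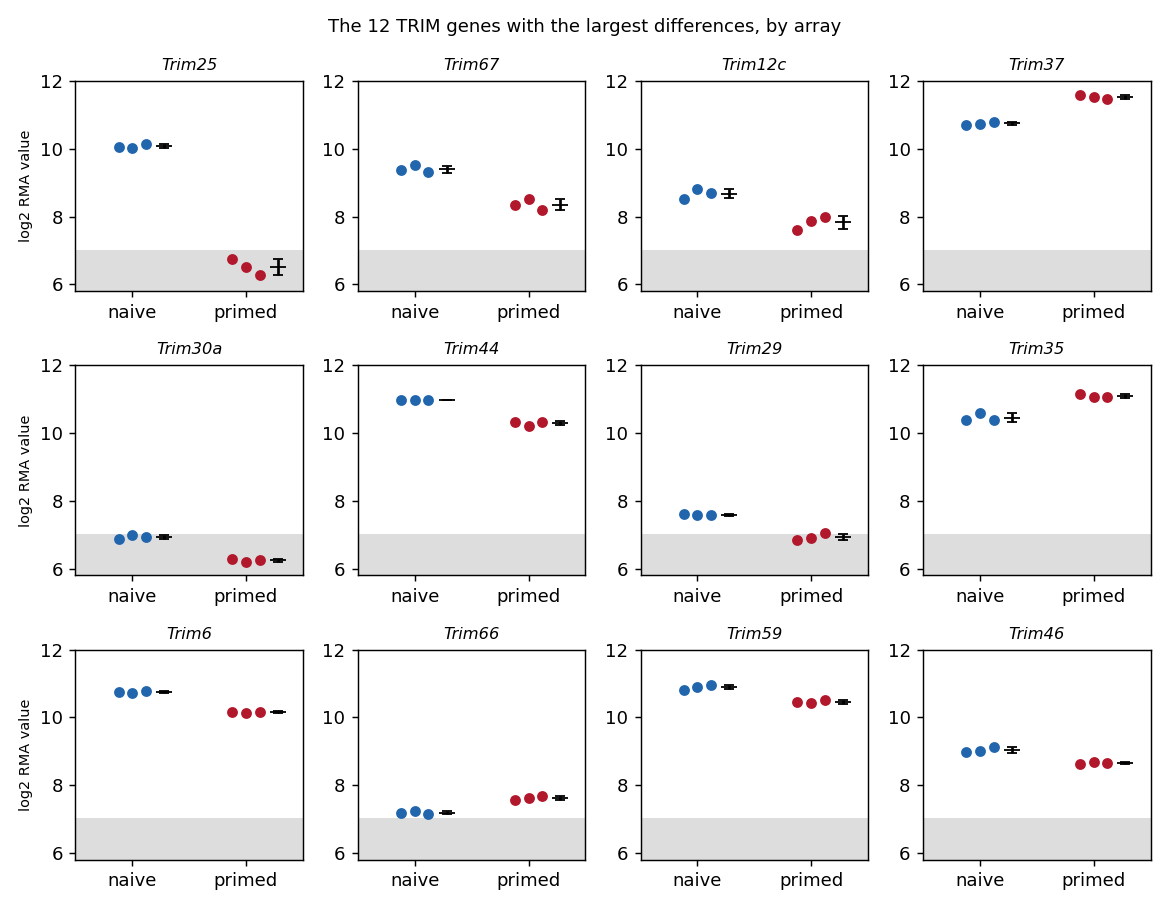
Log2 RMA values of the 12 TRIM genes with the largest differences among those past the threshold, 1 panel a gene, with 1 point an array (blue naive, red primed) and the mean ± SD (n = 3) in black beside the points. The grey band covers values under 7.02, the highest background cutoff of the 6 arrays. Trim25 falls from about 10.07 into the band, Trim30a lies at its edge or within it in both groups, and Trim37, Trim35 and Trim66 are higher in primed cells.

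Trim6, Trim34a, Trim12a, Trim12c, Trim30a and Trim30d lie next to each other on chromosome 7, a cluster of closely related genes that has expanded in the mouse. All 6 differences were below 0, as were those of 10041 of all 19938 genes. Of the 6 genes, 3 (50%) were higher in naive cells and 0 in primed cells. Over all genes these shares were 22.7% and 21.8%. In chromosome order, Trim6 was lower in primed cells, Trim34a and Trim12a did not pass, Trim12c and Trim30a were lower in primed cells, and Trim30d did not pass. The pseudogene Trim30e-ps1 at the end of the cluster, not a member, passed at -0.20 (adjusted p = 0.017) with both groups in background. Trim12a and Trim30d were in background throughout. Trim34a was above background in both groups, with 8.19, 8.14 and 8.03 on naive and 7.95, 8.10 and 7.92 on primed arrays. It overlapped between groups (difference -0.13, 95% interval -0.27 to 0.02, adjusted p = 0.14). It passed with centred arrays and with quantile normalization.

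The 5 genes directly on each side of the cluster did not pass, with differences between -0.11 and 0.11, but 8 of these 10 were in background in both groups and could hardly have passed. Among the 5 nearest genes above background on each side, Olfr678 was higher in primed cells (0.23, adjusted p = 0.016), Cavin3 was higher in naive cells (-0.31, adjusted p = 0.012) and the other 8 did not pass. Olfr632, Olfr642, Olfr678 and Olfr692 among these 10 belong to the receptor genes from which background was read. A pair of probe sets shared by Trim5 and Trim12c, 1 of them also by Trim12a, moved the same way as Trim12c. They differed by -0.57 and -0.53 (adjusted p = 0.0012 and 0.0028 in a fit over all 35556 probe sets, added after the data were seen). Because these genes are near copies, their signals may be mixed between probe sets.

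Among the TRIM genes of stem cells and of the NHL subfamily, whose C-terminal NHL repeats bind RNA or protein, 2 of 5 fell in primed cells and 2 rose, beside 22.7% and 21.8% of all genes. Trim6, an activator of interferon kinase signalling that also acts on Myc in embryonic stem cells, read 10.75, 10.73 and 10.78 in naive and 10.17, 10.12 and 10.16 in primed cells. The groups did not overlap, and the difference was -0.60 (SE 0.05, adjusted p = 1.7e-06). Trim71, the mouse relative of worm lin-41 and a let-7 target that represses mRNAs in early embryos, read 11.22, 11.42 and 11.35 against 11.21, 10.99 and 11.04. The closest arrays of the groups differed by little, and the difference of -0.25 (SE 0.07, adjusted p = 0.014) lost its call without naive replicate 2 or without primed replicate 2. Trim3, studied mostly in neurons, rose from 9.61 ± 0.02 to 9.89 ± 0.01 (SD, n = 3), a difference of 0.28 (adjusted p = 0.00053). Trim32, linked to muscular dystrophy and neural differentiation, rose by 0.25 (SE 0.06, adjusted p = 0.0049). Trim2, another neuronal ligase, did not pass at -0.09 (95% interval -0.24 to 0.07).

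The TIF1 genes, nuclear members that read histone marks through a PHD finger and a bromodomain, were divided. Trim66, best known from male germ cells, read 7.19, 7.24 and 7.14 in naive and 7.57, 7.63 and 7.67 in primed cells (difference 0.43, SE 0.05, adjusted p = 4.4e-05). Trim33, which acts with SMAD proteins in TGF-beta signalling, read 11.81, 12.02 and 11.92 against 11.63, 11.65 and 11.61 (-0.28, SE 0.06, adjusted p = 0.0026). Neither gene overlapped between groups. Trim24, a nuclear receptor cofactor that also targets p53, stood nearest to the threshold among the genes that passed (-0.14, adjusted p = 0.049). Its call ended with quantile normalization, with the replicate number as a block, and without any of naive replicates 1, 2 and 3 or primed replicates 2 and 3.

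Of the 7 genes with a COS box, which ties the protein to microtubules, Trim67 and Trim46 were higher in naive cells and 5 did not pass. The share higher in naive cells was 28.6%, beside 22.7% of all genes, and 0% were higher in primed cells, beside 21.8%. Trim67, a relative of Trim9 known from the developing brain, showed the second largest difference of the family. It read 9.36, 9.51 and 9.30 in naive and 8.33, 8.52 and 8.19 in primed cells, so the groups were well apart (difference -1.05, SE 0.08, adjusted p = 1.4e-06). Its 10 neighbours above background had a median difference of -0.03. Trim46, which organises microtubules at the start of the axon, differed by -0.38 (SE 0.06, adjusted p = 0.00017), with naive arrays between 8.97 and 9.12 and primed arrays between 8.61 and 8.68. Trim9 itself was near background (0.01, 95% interval -0.15 to 0.17). The muscle genes Trim54 (-0.0040), Trim55 (0.0078) and Trim63 (0.13, adjusted p = 0.079) and the gene Trim36 (0.08) did not pass. Trim63 was the nearest to the threshold among members that failed it, followed by Trim45 (0.12, adjusted p = 0.12) and Trim12a (adjusted p = 0.12). Trim23 (adjusted p = 0.032) and Trim58 (adjusted p = 0.038) stood with Trim24 just inside it.

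Among 5 genes of membranes and autophagy, Trim59 and Trim23 were higher in naive cells and 3 did not pass. Those higher in naive cells made up 40%, beside 22.7% of all genes, and 0% were higher in primed cells, beside 21.8%. Trim59, anchored in membranes, read 10.82, 10.91 and 10.94 against 10.44, 10.42 and 10.53 (difference -0.43, SE 0.06, adjusted p = 7.1e-05). Trim23, which carries an ARF-type GTPase domain, differed by -0.18, a call lost without naive replicate 1 or 3 or primed replicate 2 or 3. The values of Trim13 (0.10), Trim16 (0.06) and the membrane repair gene Trim72 (-0.07) had 95% intervals within 0.25 of 0. Of the group named for oocytes and early embryos, 1 of 6 genes was measured, Trim75, and it was in background.

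The other 24 members had no group. Primed cells had the higher value for 5 of these, naive cells for 6, and 13 failed the test, so that 45.8% passed, near the 44.5% of all genes. Trim37, a ligase that controls centriole number and is lost in the growth disorder mulibrey nanism, showed the largest rise of the family. It read 10.72, 10.73 and 10.80 in naive and 11.60, 11.51 and 11.47 in primed cells (difference 0.78, SE 0.06, adjusted p = 5.5e-07). Trim35, linked to pyruvate kinase and cell death, read 10.37, 10.61 and 10.40 against 11.17, 11.07 and 11.07 (0.64, SE 0.07, adjusted p = 1.3e-05). Both genes were high in naive cells too and rose without overlap. Trim7 (0.30), Trim62 (0.25) and Trim41 (0.18) rose less, and Trim41 lost its call with centred arrays, without naive replicate 3, and without primed replicates 1 or 3.

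On the naive side of this group, Trim44 and Trim29 led. Trim44, a member without a RING finger that can counter ubiquitination, read 10.98, 10.97 and 10.98 in naive and 10.33, 10.22 and 10.33 in primed cells (-0.68, SE 0.05, adjusted p = 1.0e-06). Trim29, a gene of stratified epithelia also without a RING finger, read 7.62, 7.58 and 7.58 against 6.85, 6.92 and 7.04 (-0.66, SE 0.06, adjusted p = 3.8e-06). Of its primed arrays 1 was above background, so its difference is compressed on that side. Trim8 (-0.24), Trim27 (-0.23), Trim39 (-0.21) and the red cell gene Trim58 (-0.16) were lower in primed cells by less. Trim39 lost its call without primed replicate 2, and Trim58 lost it without each naive replicate, without primed replicates 1 or 2, and with an intensity trend in the fit. The 13 that did not pass were Trim10, Trim11, Trim15, Trim31, Trim40, Trim42, Trim45, Trim47, Trim50, Trim52, Trim68, Trim69 and Trim80. Over the whole family, the differences of the 27 genes that did not pass lay between -0.16 and 0.13. Their 95% intervals reached from -0.37 to 0.30, and 19 of the 27 intervals lay within 0.25 of 0.

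Of all genes above background in a group, 56.6% passed, which is the share to set beside the neighbours of Trim37 and Trim35. Of the 10 neighbours of Trim37 on chromosome 11, 6 were higher in primed and 3 in naive cells, with a median of 0.39. The 10 neighbours of Trim35 also gave 6 and 3, with a median of 0.39. Trim35 lies on chromosome 14 between Shisa2 and Tmtc4, a stretch chosen because earlier results of these arrays showed higher values there in primed cells, so its values are a description. In that stretch 191 genes above background other than TRIM genes had a median difference of 0.42, and 89.5% were above 0. Over the 311 genes elsewhere on the chromosome the median was -0.03. Trim13 and Trim52 lie in the same stretch and did not pass (0.10 and 0.05), Trim52 being in background. The part of the stretch in the rise of Trim35 was not tested. Trim7 (0.30) and Trim41 (0.18) on chromosome 11 rose, while Irgm1, the next gene above background on one side and an interferon-induced GTPase gene, differed by -3.42.

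**Figure D3:**
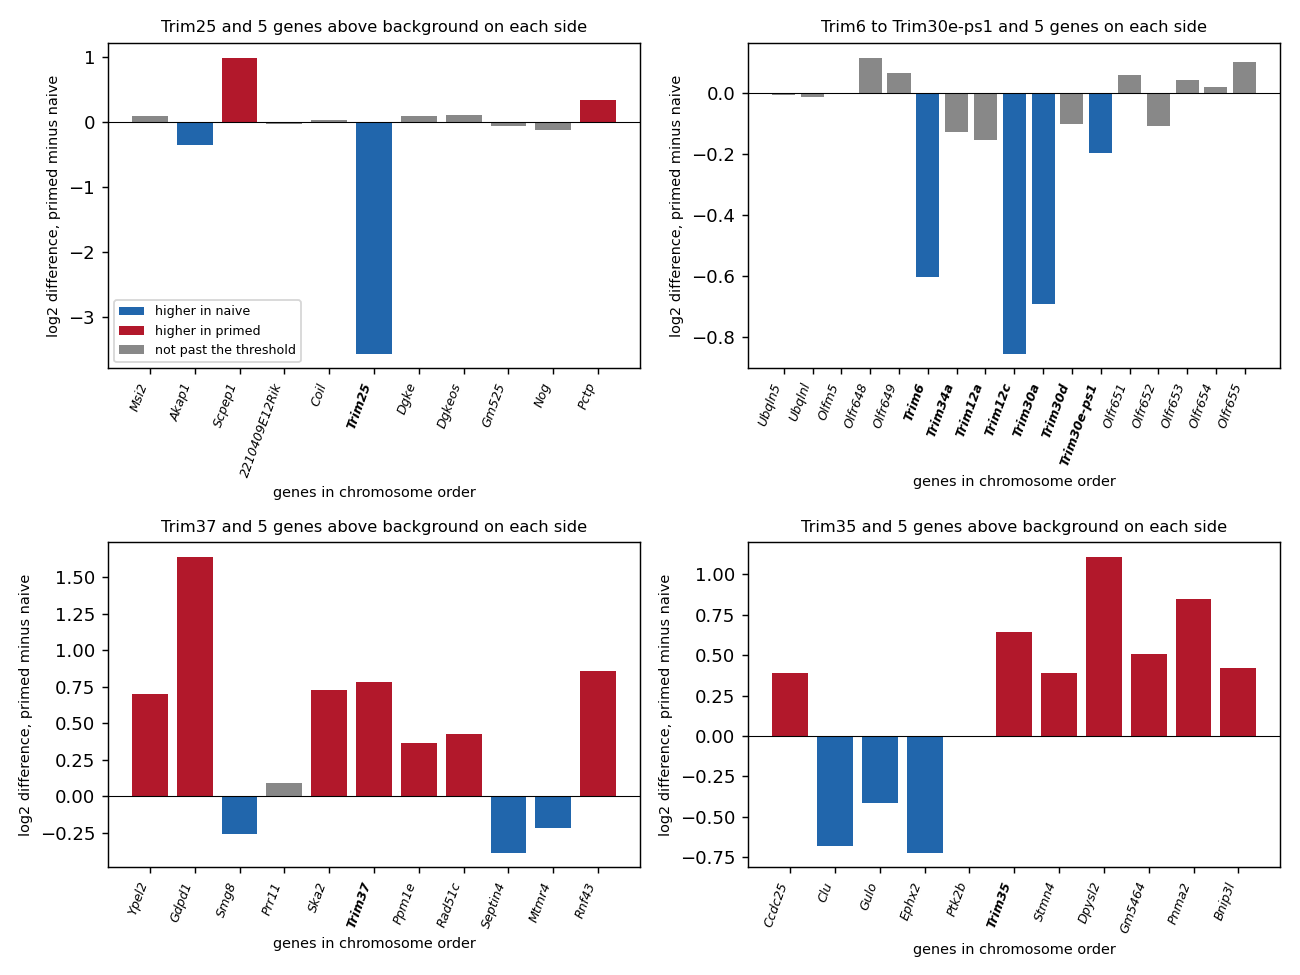
Log2 difference (primed minus naive, vertical axis) of genes in chromosome order around Trim25, the chromosome 7 TRIM cluster, Trim37 and Trim35, with TRIM names in bold. Blue bars were higher in naive cells, red bars higher in primed cells and grey bars did not pass. Trim25 at -3.56 stands alone among its neighbours, and the genes drawn beside the chromosome 7 cluster, most of them in background, did not pass.

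The pathways of TRIM25 were read from a list of RIG-I and ISG15 genes, of which 14 of 16 were measured. Naive cells had the higher value for 8 (57.1%) and primed cells for 1 (7.14%), while 5 failed the test, with a median difference of -0.28. Among the 8, Ifih1 was in background in both groups. The shares over all genes were 22.7% and 21.8%. The largest were Herc6 (-1.16, in background in primed cells), the main ISG15 ligase of the mouse, Ikbke (-0.96), a kinase for interferon regulatory factors, and Ddx58 (-0.93), which encodes RIG-I itself. Zc3hav1, the zinc finger antiviral protein, fell by 0.82. Rnf135, a RING ligase that also modifies RIG-I, did not pass (0.03), nor did the adaptor gene Mavs (0.04). Isg15 and Traf3 were not analysed here.

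A wider list of interferon-stimulated genes passed at about the rate of all genes (22.7% higher in naive and 21.8% in primed cells). Of 18 measured genes of 22, 5 (27.8%) fell in primed cells, 4 (22.2%) rose and 9 failed the test, with a median of -0.09. Of the 5 that fell, Gbp3 and Psmb8 were in background in both groups. Irgm1 (-3.42), Irf1 (-1.94) and Oasl2 (-1.83) were lower in primed cells, though a second Irf1 probe set did not pass (0.0024, adjusted p = 0.98 in the fit over all probe sets). In contrast Stat2 rose by 0.71 and Irf9 by 0.35. Both encode parts of the complex that binds the response element. Psmb9 (0.34) and Tap1 (0.32) also rose. Of the 18 genes, 7 were in background in both groups, Ifit1, Ifit3, Rsad2, Mx1, Mx2, Gbp3 and Psmb8. Ifit2, Oas1a, Oas2 and Bst2 were in background in neither group and did not pass.

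Genes of the ubiquitin-conjugating enzymes that TRIM ligases work with changed little. Of 11, 3 (27.3%) fell in primed cells, 0 rose and 8 failed the test, with a median of -0.10, where the shares over all genes were 22.7% fallen and 21.8% risen. They were Ube2v2 (-0.39), its partner Ube2n (-0.28) and Ube2e3 (-0.25). In the fit over all probe sets, a second one of Ube2n also passed (-0.27, adjusted p = 0.022). Of 2 further ones of Ube2v2, 1 passed (-0.38, adjusted p = 0.00086) and 1 did not (-0.11, adjusted p = 0.25).

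In the LIN28 and let-7 list, which holds the pathway above Trim71, 4 of 11 genes (36.4%) were higher in primed cells and 1 (9.09%) in naive cells. Of all genes, 21.8% and 22.7% were so. In total 45.5% of the list passed, near the 44.5% of all genes. Lin28b, which blocks let-7 maturation, rose by 0.42 and the exonuclease gene Dis3l2 by 0.39, while Dgcr8, a subunit of the microRNA processing complex, fell by 1.11. Lin28a did not pass (0.07). Of 7 genes for TRIM-type or related proteins that carry no Trim symbol, 2 were higher in each group (57.1% passed, against 44.5% of all genes). Pml, the gene of nuclear bodies and interferon-induced, was lower in primed cells by 0.93 on the log2 scale, while Fsd1 (0.30) and Mid1 (0.29), both of the COS-box subfamily, were higher.

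**Figure D4:**
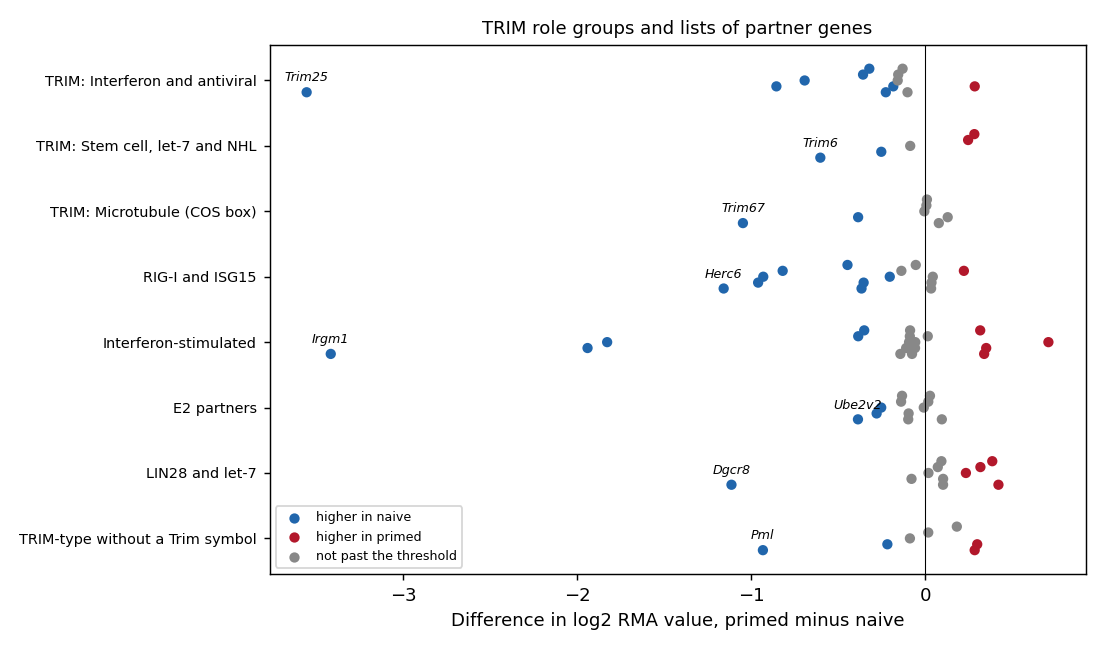
Log2 difference (primed minus naive, horizontal axis) of each gene in 3 TRIM role groups and 5 lists of partner or related genes, 1 point a gene, in blue where higher in naive cells, red where higher in primed cells and grey where not past the threshold. The gene with the largest difference of each list is named. In the RIG-I and ISG15 list 8 of 14 genes are blue, and in the interferon-stimulated list 5 of 18 are blue and 4 are red.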

How the data were processed

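Total RNA of 6 samples was measured on Affymetrix arrays. The deposited values are log2 expression made by the authors with RMA in Partek 6.6, per the submitters' processing notes; further settings were not given in the sources used here. Of 35556 probe sets, 21789 carried 1 gene symbol in the platform annotation and 1621 several. The probe set with the highest mean stood for a gene, which gave 19938 genes. limma 3.58.1 in R 4.3.3 compared primed with naive samples (lmFit, eBayes) with p-values adjusted by Benjamini-Hochberg across the 19938 genes (threshold 0.05). It was also run on simulated data, in which far fewer genes were shifted than passed here. It recovered 52% of shifts of 0.25 and 100% of shifts of 0.5, with 9 false calls.

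Background was the 95th percentile of receptor genes on each array. The number of arrays limits precision. Windows came from RefSeq tables of GRCm38.p6. Alternatives covered centring, quantile normalization, a filter at the 40th percentile, weights for arrays, a trend with intensity, averaging a gene's probe sets, a block on the replicate number, a stricter threshold and leaving out each array. The text names the 12 members with the largest differences past the threshold, those nearest to it, and members by role. Members and lists were chosen with earlier results of these data known.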

Additional observations from a re-analysis of the deposited data

How the results depend on the processing

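Over 14 alternatives no TRIM call changed direction, and 21 of the 30 calls held in every setting that tested the gene. Trim23, Trim24, Trim26, Trim38, Trim39, Trim41, Trim56, Trim58 and Trim71 lost theirs in 1 or more. Trim12a, Trim13, Trim15, Trim34a, Trim40, Trim45 and Trim63, which had not passed, gained a call in 1 or more. Trim25 ranged from -3.68 to -3.44. With a filter at the 40th percentile the family median was -0.17, taken over the 32 members that the filter kept, whose differences were unchanged. At an adjusted p under 0.01 there were 13 members higher in naive cells, by the stricter threshold. Leaving out each array in turn gave 8 to 10 members higher in primed and 14 to 20 in naive cells, the lowest without primed replicate 2, where Trim23, Trim24, Trim26, Trim39, Trim56, Trim58 and Trim71 lost their calls. It gave a family median of -0.07 to -0.04, 28 to 31 calls in the pathway lists, and 3926 to 4169 genes higher in primed and 4007 to 4455 in naive cells. With median centring the median of all genes was -0.07. The labels do not say that the replicate numbers pair the samples. Correlations of deviations between arrays of the same number were -0.109, 0.002 and -0.021, but 3 arrays a group are too few to decide it. With the replicate number as a block, 9 members were higher in primed and 20 in naive cells, beside 4172 and 4344 of all genes, and Trim24 lost its call. Another probe set of a member could not be tried, as each has 1. Probe sets in background limit 12 members in both groups.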

Other observations

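Probe sets shared by several symbols carried TRIM genes that are not members, and their values cannot be assigned to 1 gene. In a fit over all 35556 probe sets, added after the data were seen, the probe set shared by Trim17 and H2aw was higher in primed cells by 0.21 (adjusted p = 0.024). The probe set of Trim43a, Trim43b and Trim43c, genes known from early embryos, did not pass (0.03, adjusted p = 0.77) and was in background. Those of Trim30b with Gm38525 (-0.08, adjusted p = 0.44) and of Trim60 with Trim61 (0.04) were also in background and did not pass.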
